A study of Mus musculus with 4 samples.

Results

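RNA polymerase II (Pol II) occupancy was compared between V6.5 mouse embryonic stem cells carrying a short hairpin RNA against NelfE (shNelfE) and the same line carrying a control hairpin (shControl), both under flavopiridol. These are 2 of the 4 chromatin immunoprecipitation and sequencing (ChIP-seq) libraries of the study, chosen by their knockdown label, with 1 library per group. The other 2 carried hairpins against Spt4 (shSpt4) or Spt5 (shSpt5). V6.5 cells come from a C57BL/6-129 background, and all cultures received 1 µM flavopiridol for 1 h, about 4 days after the hairpin. The antibody recognised the N-terminus of Rpb1, the largest Pol II subunit. Per the labels, the shNelfE cells were grown for 2 passages away from feeder fibroblasts and the shControl cells for 1, and the libraries were run on different flow cells. The shSpt4 and shSpt5 cells were also grown for 2 passages. The labels name no clone and no sequence of the hairpins. Flow cell, passages and knockdown therefore cannot be told apart in any value of this comparison.

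NELF is a protein complex that binds Pol II shortly after it has started transcription and helps to hold it in a paused state just downstream of the promoter. NelfE is its RNA-binding subunit. DSIF, made of Spt4 and Spt5, acts beside it. Release into the gene body needs the kinase Cdk9 of P-TEFb, which phosphorylates NELF, DSIF and the tail of Rpb1. Flavopiridol inhibits Cdk9 and so keeps much of Pol II from productive elongation. The comparison asks how Pol II occupancy under this block differs when NelfE is targeted. Neither RNA nor protein was measured in these libraries, so the depth of the knockdown and the identity of the cells were not checked here.

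The deposited first-category reads numbered 3272816 (shNelfE) and 3486288 (shControl). Of these, 10.2% and 9.07% repeated a position already seen on the same strand. Without the repeats, 2938052 and 3170090 tags remained. Inside enriched regions the repeated share was nearly the same in both, at 14.4% and 14.6%. Outside them it was 9.42% in shNelfE and 7.53% in shControl. The distance between the tags of opposite strands was 84 bp and 82 bp. The stated mean size of the sheared DNA was 500 bp. Which end of a reverse-strand read its position marks is not stated, so the distance is not read as a fragment length. Tags of the 4 libraries together formed 13972 enriched nuclear regions with a median width of 700 bp. They covered 0.423% of the occupied nuclear genome and held a median of 18 tags in shNelfE and 25 in shControl. The files carry positions on the mouse build mm8 and no gene names, so regions are given by position, without a gene, exon or promoter.

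The shNelfE library had fewer Pol II tags at most regions. Regions held 15.5% of its tags (exact binomial 95% interval 15.5 to 15.5%) against 20.4% in shControl (20.3 to 20.4%). Scaled by total kept tags, 77.6% of regions were below the control and the median ratio was 0.760 (0.754 to 0.766, an interval over regions). The 25th and 75th percentiles of the log2 ratios were -0.71 and -0.05, and the 5th and 95th percentiles were -1.39 and 0.75. The choice of scale changed this level. In the 578 windows of 1 Mb that held tags and no region, shNelfE had 249115 tags and shControl 210639, a ratio of 1.28 (1.27 to 1.28). With these windows as the scale, every log2 ratio is lower by 0.35. Then 88.6% of regions were below the control and the median ratio was 0.596 (0.591 to 0.600). Less Pol II at the regions and weaker enrichment in the shNelfE immunoprecipitation would both give this pattern, and they cannot be told apart with 1 library per group. Likewise, fewer cells with Pol II at a region and less Pol II per cell cannot be told apart.

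**Figure D1:**
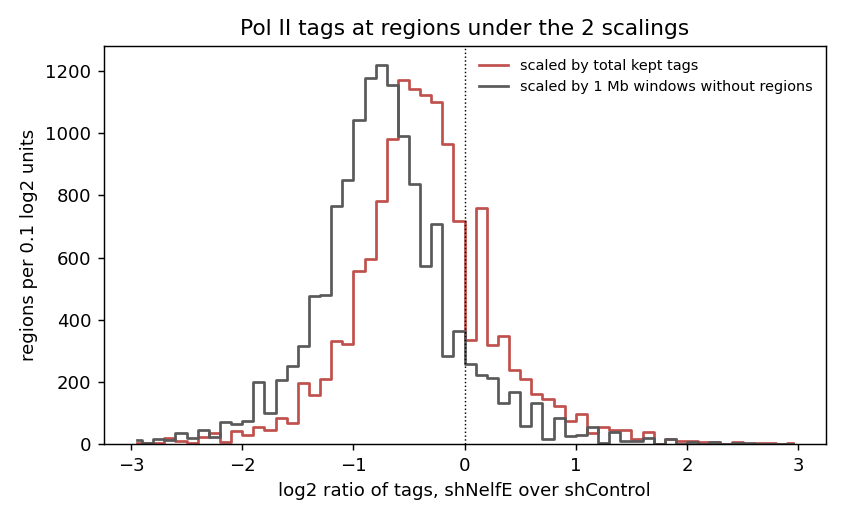
Number of regions (vertical axis) by log2 ratio of tags in shNelfE over shControl (horizontal axis), in steps of 0.1, for the 13972 regions under each scaling. Both curves have 1 main peak below 0 and differ by a constant shift of 0.35, and the narrow spikes come from regions with few tags, whose ratios take few values.

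A region was called lower when its ratio was at most 0.5 and higher when it was at least 2, with an exact 95% interval of the ratio that excluded 1. By total tags, 941 regions were called lower (6.73% of all) and 81 higher (0.58%). By windows without regions, 3042 were called lower (21.8%) and 22 higher (0.157%). These calls cover counting error in 1 pair of libraries and are not tests of the knockdown. The higher regions were thinly covered, with a median of 14 tags in the pair of libraries together against 41 at the lower ones. A count of 50 tags or more over both libraries was reached by 6436 regions. Of these, 365 were lower (5.67%) and 5 higher (0.0777%) by total tags, and 1646 lower (25.6%) and 1 higher (0.0155%) by windows. A count of 200 or more was reached by 1271 regions, of which 19 were lower (1.49%) and 1 was higher (0.0787%) by total tags, and 221 lower (17.4%) and 0 higher by windows.

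Ratios at well-covered regions lay mostly below the control, and their spread differed with coverage. At the 1271 regions with at least 200 tags, the median ratio by total tags was 0.744 and 93.1% were below the control. The standard deviation of their log2 ratios was 0.29, of which counting error alone gives 0.18. The spread left after counting error was 0.23. The same figure was 0.31 over 1289 regions in shSpt4 and 0.48 over 1128 regions in shSpt5, with median ratios of 0.867 and 0.605. With at least 500 tags it was larger, at 0.36 over 92 regions in shNelfE. There it was 0.40 over 98 regions in shSpt4 and 0.61 over 81 regions in shSpt5. All 3 sets of ratios share the control library, and the difference between their spreads was not tested, since each group has 1 library.

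Tags were lost most at the summit and progressively less away from it. Within 150 bp of a summit, shControl held 27.2 tags per kb and shNelfE 20.3, both per 1000000 kept tags, a ratio of 0.747 (0.743 to 0.751). The ratio was 0.793 (0.788 to 0.798) at 150 to 500 bp, 0.836 (0.829 to 0.843) at 0.5 to 1 kb and 0.909 (0.900 to 0.917) at 1 to 2 kb. The libraries crossed at 5 to 10 kb, where the ratio by total tags was 1.00 (0.996 to 1.01). Beyond that shNelfE held more, with 1.08 (1.08 to 1.09) at 100 to 200 kb and 1.16 (1.15 to 1.16) at 200 to 500 kb. The 19 autosomes each showed the loss at the summit, from 0.714 on chromosome 14 to 0.804 on chromosome 13. At 1 to 2 kb they ran from 0.846 on chromosome 19 to 1.02 on chromosome 13. The ratio at the summit divided by that at 1 to 2 kb was 0.822, a value that no scaling between the libraries changes.

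Set against the tag density of the windows without regions, the same distances show how far each library stood out from its own background. The density within 150 bp of summits was 237 times that of the windows in shControl and 139 times in shNelfE. At 1 to 2 kb it was 10.2 times and 7.25 times, and at 10 to 20 kb it was 4.37 times and 3.49 times. Measured this way shNelfE was below the control at each distance up to 500 kb, including stretches far from any region. After the window density was taken off, the part left in shNelfE was 0.584 of the control within 150 bp, 0.681 at 1 to 2 kb and 0.738 at 20 to 50 kb. At these distances shSpt4 was at 0.618, 0.664 and 0.672, and shSpt5 at 0.365, 0.499 and 0.539. In all 3 libraries the centre was reduced more than the signal at 20 to 50 kb. The libraries share 1 control, and the differences between them were not tested.

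**Figure D2:**
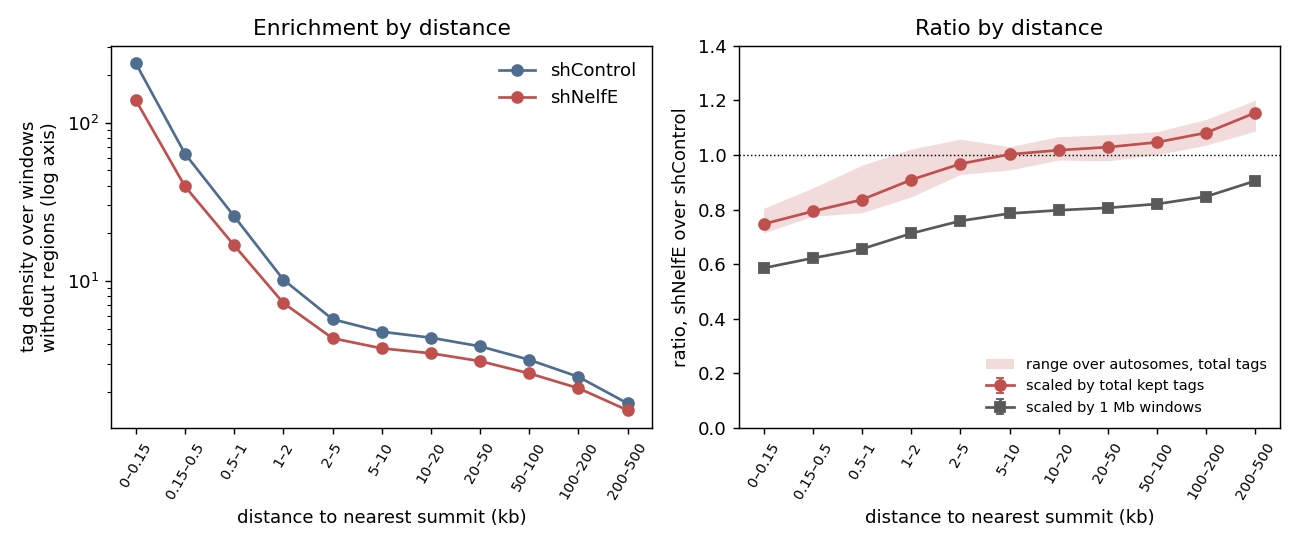
Left, tag density relative to 1 Mb windows without regions (log axis) in shControl and shNelfE by distance to the nearest summit (kb); right, the ratio of shNelfE to shControl at the same distances under both scalings, with exact 95% intervals and the range over 19 autosomes for total tags. The control curve lies above at each distance shown, and the ratio by total tags climbs from 0.747 within 150 bp to 1.16 at 200 to 500 kb.

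Region by region, the focal ratio sets the density of tags up to 500 bp from the summit against that of the flanks, 1 to 3 kb out. Its median was 8.57 in shNelfE and 10.9 in shControl, and it was lower in shNelfE at 64.5% of regions. The median log2 difference was -0.33 (-0.34 to -0.31). With the density of the windows without regions taken off centre and flank it was -0.26.

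Many regions carried more Pol II on 1 side than on the other, as a gene body beside a promoter would. The direction of transcription is not in the files, so it was replaced by the heavier flank. Among regions with no other summit within 10 kb, 3790 had at least 2 times as many tags on one side, 0.5 to 3 kb from the summit, as on the other. The shSpt4 and shSpt5 libraries alone decided the side. The regions and their summits came from the 4 libraries together, so tags of the compared libraries entered there. In the heavier flank shNelfE had 56456 tags and shControl 72737, a ratio of 0.837 (0.828 to 0.847). In the lighter flank it had 19806 and 22312, a ratio of 0.958 (0.940 to 0.976). Within 150 bp of these summits the ratio was 0.739 (0.732 to 0.745). The heavier flank was thus reduced less than the summit and more than the lighter flank, and the ratio of the flanks' ratios was 0.874 (0.855 to 0.894). The lighter flank holds a larger share of background. With window density taken off and windows as the scale, the shNelfE level was 0.577 of the control at the summit, 0.639 in the heavier flank and 0.705 in the lighter flank. The order of the 3 remained.

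**Figure D3:**
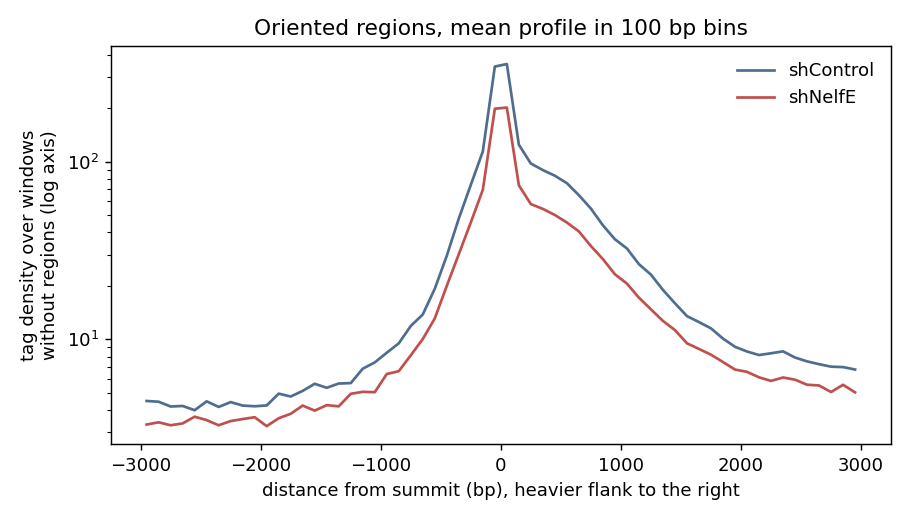
Mean tag density relative to 1 Mb windows without regions (log axis) around the summits of 3790 oriented regions, in bins of 100 bp from 3000 bp before to 3000 bp after the summit, heavier flank to the right. The shNelfE curve runs below shControl throughout, with a gap that is widest near the summit, and the shoulder of the heavier flank is present in both.

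Pol II tags near the summit were lower in shNelfE and did not lie elsewhere on the whole. The mean position of the tags within 500 bp of the summit was compared at the 1592 oriented regions with at least 30 tags in each library. The median displacement toward the heavier flank was 0.0068 bp, with an interval over regions of -2.57 to 1.90 bp, and 50.0% of regions were displaced toward that flank. The 25th and 75th percentiles were -26.8 and 22.9 bp. The standard deviation was 39.2 bp, and the counting error of the positions alone gives 35.5 bp. At the 159 regions with at least 100 tags in each library the median was 3.36 bp (-6.30 to 8.09), with a standard deviation of 30.1 bp against 23.1 bp by counting. A common shift toward the heavier flank of more than 8.09 bp lies outside both intervals. The tags were spread a little more widely in shNelfE. At 462 regions with at least 100 tags in each library, the standard deviation of tag positions had a median of 195 bp in shNelfE and 190 bp in shControl. The median difference was 5.09 bp (3.60 to 7.04), and 63.2% of these regions were wider in shNelfE. More background within the same 1000 bp widens the spread as well, and its part in this value was not tested.

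Single regions were displaced by more. The largest displacement toward the heavier flank was 106 bp, with a counting error of 23.0 bp, at chr1:88357101-88360200. That region had 190 tags within 500 bp of its summit in shNelfE and 209 in shControl. The next were 75.4 bp (error 23.0 bp) at chr11:3165401-3166950 and 67.1 bp (24.1 bp) at chr13:23628801-23630250. Toward the lighter flank the largest were -70.4 bp (22.6 bp) at chr7:29691601-29693250, -70.1 bp (27.5 bp) at chr1:180154651-180156400 and -69.2 bp (27.4 bp) at chr7:126986501-126987700. Both directions thus held displacements of similar size, apart from the region at 106 bp. These are the extremes of 159 regions, of which 15 were displaced by more than 50 bp, and their errors are not adjusted for that choice.

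The ratio differed with how much Pol II a region carried. Regions were split into 4 equal classes by their tags in shSpt4 and shSpt5, which share no tags with the compared libraries. From the least to the most occupied class, the median ratio by total tags was 0.825, 0.771, 0.747 and 0.746. The share called lower was 5.32%, 9.79%, 9.50% and 2.32%, beside 6.73% over all regions. By windows without regions it was 12.2%, 23.5%, 30.5% and 20.9%, beside 21.8%, so that the order of the classes depended on the scale. The least occupied class had a median of 7 tags in shControl, too few for most regions to be called, and background makes up more of its tags. On the window scale the class medians were 0.647, 0.604, 0.585 and 0.584. Narrow regions, up to 400 bp, had a median ratio of 0.839 by total tags, and regions over 1 kb and under 3 kb had 0.744. The 9 regions of 3 kb or more were all below the control, with a median ratio of 0.729, and none was called.

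The most occupied regions of all had higher ratios. The 139 regions in the top 1% of shSpt4 and shSpt5 tags had a median ratio of 0.848 by total tags, and 31.7% of them were above the control, beside 22.4% of all regions and 6.92% of those with at least 200 tags. By windows without regions their median was 0.665. Their focal ratio was nearly equal in the 2 libraries, with a log2 difference of -0.04 (-0.13 to 0.11). The 92 regions whose tags in both libraries came to 500 or more, a choice that does not use the other libraries, had a median ratio of 0.845. Because repeats were dropped, the counts of dense regions have a ceiling. With all reads kept, the medians were 0.784 for the top 1% and 0.781 for the 92 regions, against 0.720 at the regions with at least 200 tags. The gap was smaller without the ceiling and had the same direction. Because the top 1% was chosen on the other knockdown libraries, regions that held their Pol II in those libraries are favoured in it.

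The autosomes and the X chromosome differed little in their median ratio. A stretch on chromosome 13 stood above the rest of its chromosome, and windows elsewhere were also high, as given below. The median ratio by total tags ran from 0.736 on chromosome 17 to 0.809 on chromosome 13 over the 19 autosomes, and it was 0.758 at the 403 regions of the X chromosome. The 19 regions of the Y chromosome had a median of 6 tags in either library, and their ratio of 1.08 rests on those few tags. On chromosome 13, a stretch from 21 to 25 Mb held 62 regions with a median ratio of 1.05 by total tags and 0.824 by windows without regions. Their summed tags gave 1.09 (1.05 to 1.12) by total tags, with 1 of the 62 called lower and 1 higher. The other 480 regions of the chromosome had a median of 0.791 and a summed ratio of 0.769 (0.752 to 0.787). This stretch was chosen after the values were seen, so its ratio is a description. Mouse chromosome 13 carries the major cluster of replication-dependent histone genes, which are short and intensely transcribed. The gene table at hand describes another build, so these regions were not matched to those genes.

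**Figure D4:**
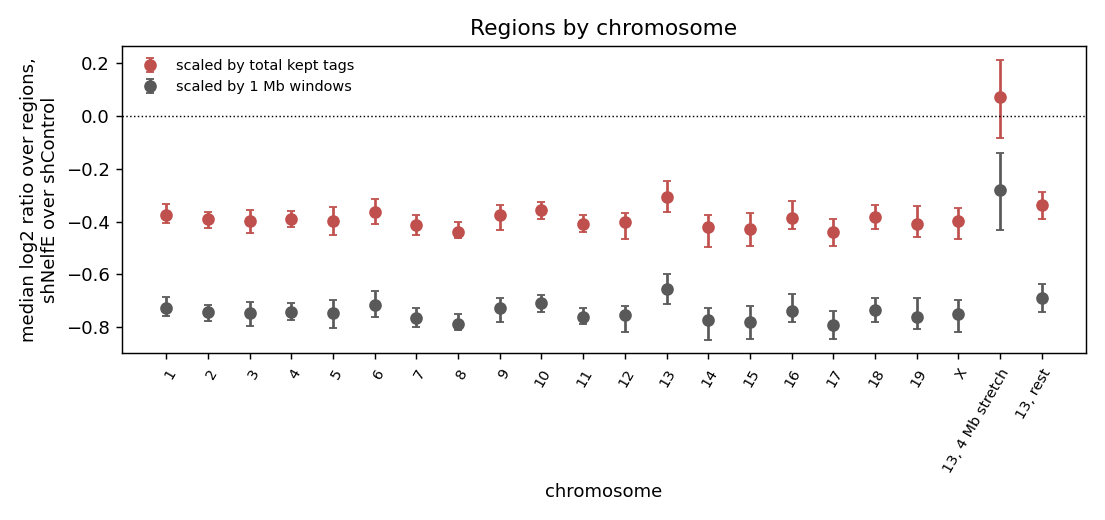
Median log2 ratio of shNelfE over shControl over the regions of each chromosome, with intervals over regions, scaled by total kept tags and by 1 Mb windows without regions; the last 2 positions split chromosome 13 into a 4 Mb stretch and the rest. The autosomes and X lie below 0 under both scalings (Y, with 19 regions, is left out), and the stretch on chromosome 13 has a median ratio of 1.05 by total tags.

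The same unevenness was seen along the genome in windows of 1 Mb. In the 479 windows that held at least 10 regions, the summed ratio of their regions had a median of 0.741 by total tags, and the 5th and 95th percentiles were 0.650 and 0.896. Only 8 of them were above 1. The highest was chromosome 9 from 3 to 4 Mb, where 16 regions gave 552 tags in shNelfE and 443 in shControl, a ratio of 1.34 (1.18 to 1.53). A window at 1 to 2 Mb of the Y chromosome followed at 1.32 (0.982 to 1.79), an interval that includes 1. The window at 72 to 73 Mb of chromosome 1 had 1.17 (1.10 to 1.25), the one at 87 to 88 Mb of chromosome 11 had 1.16 (1.09 to 1.24) and the one at 23 to 24 Mb of chromosome 13, with 29 regions, had 1.10 (1.05 to 1.15). By windows without regions these 5 ratios were 1.05, 1.04, 0.917, 0.912 and 0.865, and the intervals of the first 2 included 1. All 5 windows were also above 1 by total tags in shSpt4 and shSpt5 against the same control, with 1.54 and 1.52 for the first, 1.24 and 1.502 for the window on Y, and values from 1.05 to 1.405 for the other 3. The lowest were chromosome 12 from 73 to 74 Mb, at 0.598 (0.506 to 0.705), and chromosome 9 from 30 to 31 Mb, at 0.598 (0.484 to 0.736). Summed tags give the most weight to regions with many tags. In these 2 low windows, 2 of 10 and 6 of 10 regions were above the control by total tags. In the 5 high windows, in the order given, it was 11 of 16, 8 of 13, 5 of 16, 9 of 19 and 16 of 29.

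Tags between regions followed the number of regions around them. Leaving out every region and 2 kb on each side of it, the ratio by total tags was 1.28 (1.27 to 1.28) in windows with no region and 1.17 (1.17 to 1.18) in the 559 windows with 1 to 2 regions. It was 1.09 (1.09 to 1.10) with 3 to 5 regions, 1.03 (1.03 to 1.04) with 6 to 10, 0.992 (0.988 to 0.996) with 11 to 20, and 0.963 (0.957 to 0.969) in the 112 windows with more than 20. The diffuse signal of region-rich parts of the genome was thus lower in shNelfE relative to region-free parts, by a factor of 0.755 between the ends of this series. Over the autosomes the ratio in windows without regions ran from 1.22 on chromosome 12 to 1.35 on chromosome 11. The same windows stood at 1.32 in shSpt4 and 1.55 in shSpt5. These 3 libraries share a flow cell that the control was not on, and 2 passages off feeders against 1 in the control. All 3 also carry a knockdown hairpin, so these differences from the control cannot be told apart.

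The lowest ratios with good coverage were on chromosomes 11, 17 and 19. At chr11:20148751-20149950 shNelfE had 60 tags and shControl 170, or 20.4 and 53.6 per 1000000 kept tags, a ratio of 0.381 (0.279 to 0.514). The counts were 27 against 95 for forward tags and 33 against 75 for reverse tags. At chr17:45058601-45059600 the counts were 69 and 175, a ratio of 0.425 (0.317 to 0.565). This region was as low in shSpt4, at 0.411 (0.301 to 0.553), and in shSpt5, at 0.337 (0.246 to 0.456). At chr11:102112801-102114000 they were 65 and 156, a ratio of 0.450 (0.331 to 0.604). At chr19:44346251-44348300 they were 67 and 158, a ratio of 0.458 (0.339 to 0.613). These regions were low in all 3 knockdown libraries against the shared control, though the last stood at 0.713 (0.546 to 0.926) in shSpt4. Most regions were below that control. With at least 200 tags in the library and the control together, it was 75.6% of regions in shSpt4 and 94.1% in shSpt5. Choosing low shNelfE ratios also favours high control counts, which lower the other 2 ratios.

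At a well-covered region the shNelfE ratio was low, the shSpt5 ratio less so, and the shSpt4 interval included 1. At chr11:77980001-77982200 shNelfE had 68 tags and shControl 161, a ratio of 0.456 (0.338 to 0.609). There shSpt4 stood at 1.09 (0.862 to 1.37) and shSpt5 at 0.619 (0.477 to 0.801). Its 23.1 normalised tags in shNelfE were the fewest of the 4 libraries, with 31.4 in shSpt5, 50.8 in shControl and 55.2 in shSpt4. The region was singled out among the 5 lowest after its values were seen.

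With 50 tags or more over both libraries, the 10 lowest ratios ran from 0.211 to 0.326, with 55 to 87 tags in the pair. The lowest was chr18:70693251-70694050, with 9 tags against 46, a ratio of 0.211 (0.0908 to 0.437). The next was chr13:56144151-56145300, with 11 against 45, a ratio of 0.264 (0.123 to 0.518). At chr9:62623801-62624550 there were 11 against 44 tags, a ratio of 0.270 (0.126 to 0.531). There shSpt4 stood at 0.898 (0.554 to 1.44) and shSpt5 at 0.509 (0.290 to 0.867). At chr9:62138901-62139600 shNelfE had 13 tags against 45, a ratio of 0.312 (0.154 to 0.588), beside 0.852 (0.524 to 1.37) in shSpt4 and 0.565 (0.332 to 0.942) in shSpt5. At chr3:101733001-101734100 shNelfE had 17 tags against 59, a ratio of 0.311 (0.170 to 0.541), beside 0.995 (0.667 to 1.48) in shSpt4 and 0.448 (0.271 to 0.722) in shSpt5. Over regions with at least 50 tags in shSpt5 and shControl together, the median shSpt5 ratio was 0.595 and 92.3% were below the control. At the 3 regions just named the shSpt5 library was below the control as well. The other 5 were chr11:20442301-20443550 at 0.286, chr9:78273801-78275050 at 0.308, chr10:93018951-93019750 at 0.319, chr4:131787301-131788050 at 0.322 and chr8:3597751-3598550 at 0.326. Their intervals overlap widely, so their order is not resolved, and none is adjusted for choosing extremes. Over all 10 regions the shSpt4 ratios to the shared control ran from 0.367 to 0.995, with a median of 0.512. The shSpt5 ratios ran from 0.154 to 0.565, with a median of 0.381.

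Of the 5 regions called higher at this coverage, 4 had small counts. At chr5:115359351-115360350 it was 36 against 15, a ratio of 2.59 (1.38 to 5.09), beside 1.996 (1.01 to 4.07) in shSpt4 and 0.475 (0.164 to 1.24) in shSpt5. At chr6:47717301-47718300 it was 44 against 19, a ratio of 2.50 (1.43 to 4.53). At chr1:36013351-36014250 it was 35 against 16, a ratio of 2.36 (1.27 to 4.57), and with all reads kept it was 1.92 and no longer called. At chr3:84421301-84422100 it was 42 against 20, a ratio of 2.27 (1.30 to 4.07). On chromosomes 1, 3 and 6 the other knockdown libraries stood between 0.954 and 1.20. The 5th, chr4:116687451-116688750, had 293 tags against 154, a ratio of 2.05 (1.68 to 2.51), and similar ratios in shSpt4 (2.08) and shSpt5 (2.12). Relative to windows without regions only the region on chromosome 5 kept its call, at 2.03 (1.08 to 3.99).

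The 5 highest ratios at well-covered regions were above 1 in the other 2 knockdown libraries too. After the chromosome 4 region, the highest ratios at regions with at least 200 tags were 1.75 (1.45 to 2.13) at chr1:173338901-173340300, 1.62 (1.27 to 2.08) at chr11:87278451-87279300, 1.60 (1.33 to 1.93) at chr11:87259351-87260200 and 1.60 (1.36 to 1.88) at chr9:64993751-64994950. With the chromosome 4 region, their ratios ran from 1.70 to 2.08 in shSpt4 and from 1.48 to 2.12 in shSpt5. All 3 ratios of a region share its 1 control count. By windows without regions these 5 stayed above 1 in shNelfE, between 1.25 and 1.61, and none was called.

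**Figure D5:**
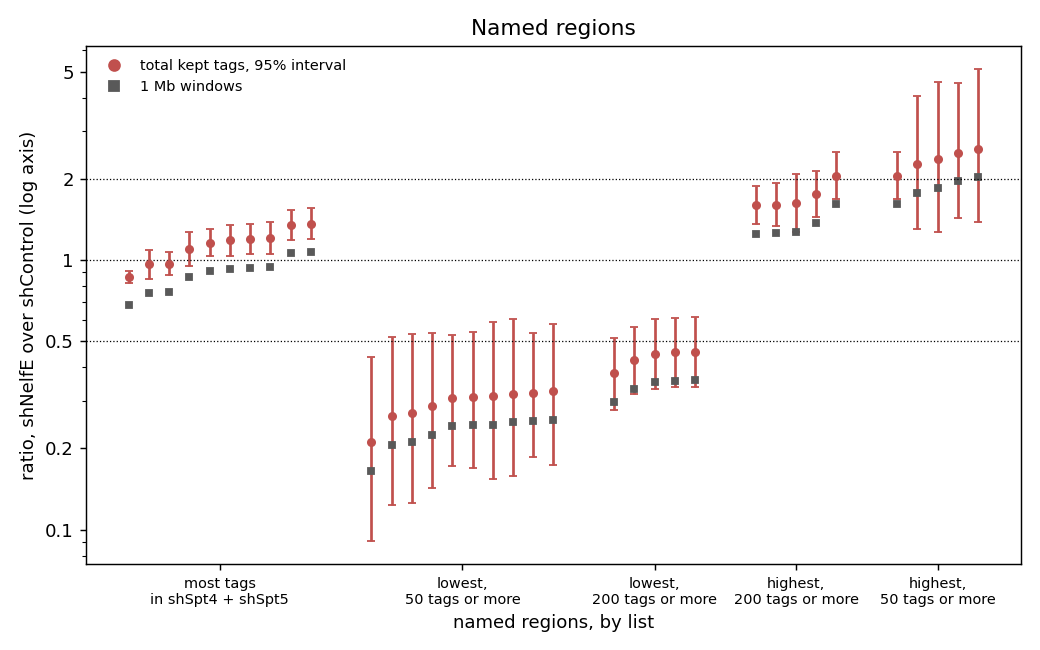
Ratio of shNelfE to shControl (log axis) at the named regions, grouped by the list that named them, with exact 95% intervals for total kept tags and squares for the scaling by 1 Mb windows; dotted lines mark 0.5, 1 and 2. The 10 lowest regions lie between 0.211 and 0.326, and 8 of the 10 regions with most tags fall below 1 on the second scale.

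The 10 regions with most tags were ranked in shSpt4 and shSpt5, and 3 of them were below the control in shNelfE by total tags and 8 by windows without regions. A pair of them lies on chromosome 17, where the mouse reference carries a copy of the ribosomal RNA repeat, though these regions were not matched to it. At chr17:39451101-39454750 shNelfE had 2866 tags and shControl 3573, a ratio of 0.865 (0.824 to 0.909), and at chr17:39456001-39456950 it had 811 and 902, a ratio of 0.970 (0.881 to 1.07). Dropping repeats mattered here. With all reads kept the ratios were 0.762 (0.733 to 0.791) and 0.911 (0.849 to 0.978). Another pair lies in the stretch on chromosome 13 described above. At chr13:23746001-23747600 the counts were 647 and 602, a ratio of 1.16 (1.04 to 1.30), beside 0.957 (0.847 to 1.08) in shSpt4 and 0.989 (0.881 to 1.11) in shSpt5. The shNelfE ratio there was 1.06 (0.971 to 1.17) with all reads kept and 0.909 (0.812 to 1.02) by windows without regions. Both of these intervals include 1. At chr13:23562201-23563700 the counts were 502 and 562, a ratio of 0.964 (0.853 to 1.09). The highest 2 were chr5:115750101-115751850, with 534 against 422 tags and a ratio of 1.37 (1.20 to 1.55), and chr1:72187751-72189300, with 548 against 438 and a ratio of 1.35 (1.19 to 1.53). The regions at chr15:82976701-82978150, chr10:39946851-39948550, chr6:124706101-124707400 and chr4:131541551-131542600 had ratios of 1.21, 1.19, 1.18 and 1.10. By windows without regions the chromosome 5 and chromosome 1 regions stood at 1.07 (0.940 to 1.22) and 1.06 (0.931 to 1.20), which include 1.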

How the data were processed

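Per the file headers, the authors aligned reads with Bowtie to mm8 (-e 70 -k 2 -m 2 -n 2 -l 36) and deposited 1 signed position per read, the sign giving the strand, in 2 categories, without normalization. The aligner's version and any removal of duplicates are not given in the sources used here. The first category was used. Groups came from the knockdown labels. Python 3.11.15 with NumPy 2.4.6 and SciPy 1.17.1 kept 1 tag per position and strand and moved tags by 42 bp along their strand. The 4 libraries, brought to equal depth by thinning and then pooled, gave the regions. Each 250 bp window, in steps of 50 bp, had to pass a Poisson p of 1e-09 over 2 backgrounds, the whole genome's tag density and that of the surrounding 5000 bp without the nearest 1000 bp. Windows up to 500 bp apart were joined. Mitochondrial tags stayed in the totals and out of regions. A whole cell extract library was not used here, and regions mark where tags were dense.

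Intervals of ratios and shares are exact binomial, those of medians come from order statistics over regions, and that of the flanks' ratio is a normal approximation on the log scale. They reflect counting or the variation among regions only, and PCR copies are not independent molecules. Log2 ratios and median ratios used a pseudocount of 0.5 tags. Positions are 1-based. With 1 library per group no p-value was computed. Regions were named by tags in shSpt4 and shSpt5 (10 most), by ratio among called regions with 50 tags or more (10 lowest, 10 highest, or as many as were called) and among those with at least 200 (5 each way), and by displacement (3 each way). The members, lists and settings were chosen with earlier results of these data known. The scripts were tested on simulated data.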

Additional observations from a re-analysis of the deposited data

Results flagged for a closer look

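Second-category reads, which entered no comparison, made up 6.95% of the lines in shNelfE and 6.72% in shControl. The headers do not say what separates the categories, and shSpt4 and shSpt5 stood at 6.96% each. Mitochondrial tags, also outside the regions, numbered 367.6 per 1000000 kept tags in shNelfE and 281.7 in shControl, a ratio of 1.30 (exact 95% interval 1.19 to 1.43), or 1.35 (1.24 to 1.46) with all reads kept. Mitochondrial DNA is not transcribed by Pol II. The ratio in the 1 Mb windows without regions was 1.28 in shNelfE, 1.32 in shSpt4 and 1.55 in shSpt5. The mitochondrial level was 499.8 in shSpt4 and 659.8 in shSpt5, further above the control than their windows. A link between the 2 measures was not tested. No library of either category has a replicate.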

How the results depend on the processing

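Of the 20 named regions that were called, none changed direction under the alternatives run on them. Called regions outside the named ones were not followed singly. No difference over all regions changed direction except the median displacement. That displacement, near 0 as reported, ran from -1.46 bp with tags unmoved to 1.05 bp with regions called on shControl. Each of its intervals included 0. Of 93 values, 53 stayed within the interval of the value reported or, for counts, within 1.5 times of it. The alternatives on background in flanks and by distance, and those on named regions, were chosen after seeing the data. Leaving tags unmoved or thinning shControl to the depth of shNelfE moved nothing past these limits. With all reads kept, the difference in the share of tags in regions was -5.52 percentage points (reported: -4.89), the median log2 ratio -0.41 by total tags and -0.79 by windows, higher calls 144 and 54, the ratio in windows without regions 1.29 and that within 150 bp 0.735. At a Poisson p of 1e-12 the share was -4.67, the median by total tags -0.42, higher calls by total tags 48, the window ratio 1.26, the central ratio 0.743 and the focal difference -0.35. With regions called on shSpt4 and shSpt5, so that neither compared library chose them, there were 9015 regions. The share was then -4.09, the medians -0.42 and -0.72, lower calls 627 and 1882, higher calls 30 and 11, the window ratio 1.23, the ratio at 1 to 2 kb 0.890 and the focal difference -0.35. With the 9546 regions called on shControl, a choice that favours high control counts, the medians were -0.54 and -0.85, higher calls 3 and 0, the window ratio 1.24, the central ratio 0.703 and the focal difference -0.45. A ratio of 1.5 in place of 2 gave 2345 and 5770 lower calls. Scaling by tags outside regions gave a median of -0.48. With background taken off, the focal difference was -0.26, the ratio of the flanks' ratios 0.907, and the ratios within 150 bp and at 1 to 2 kb, on the window scale, 0.584 and 0.681. At regions with no other summit within 20 kb these 2 ratios were 0.741 and 0.945 by total tags. Requiring a flank 3 times as heavy gave a ratio of the flanks' ratios of 0.844. The cause of these moves was not tested. Of the 40 named regions, 20 were called. Under 4 settings each, 75 of their 80 values kept the call and 5, all of higher regions, lost it. The other 20 regions stayed uncalled, with 6 of 80 values on the other side of 1. No paired analysis was possible because each group has 1 library. Depth limits single regions, with 18 and 25 tags at the median region. Under the reported rule a change of less than 2 times is not called at any depth.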
